A study of Rattus norvegicus with 6 samples.

Results

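Genes that store, release and recover calcium in heart muscle cells were examined in primary neonatal cardiomyocytes. These are muscle cells cultured from the ventricles of 2-day-old Sprague-Dawley rats after pre-plating to reduce fibroblasts. The genes numbered 10 (Atp2a2, Sln, Pln, Ryr2, Casq1, Casq2, Slc8a1, Trdn, Jph2 and Hrc). Every array probe set paired with exactly 1 of these symbols was kept. This gave 9 probe sets, 1 for each gene but Casq1, out of 29215 on the array, and Casq1, the calsequestrin of skeletal muscle, was paired with no probe set in the platform annotation and has no value here. The control group was 3 samples kept for 24 h in serum-free medium (Ctrl), and the hCT1 group was 3 samples kept for 24 h in the same medium with human recombinant cardiotrophin 1 (hCT1, 0.5 nM), a cytokine that signals through the receptor chain gp130. For all 6 samples the growth protocol lists a hypertrophic agonist in the medium, whereas the treatment protocol and the methods of the study give the controls serum-free medium alone, without an agonist. The RNA is described as isolated in triplicate without a statement that the cultures were separate, so the spread behind each p-value may be technical only. The values are log2 values on the RMA scale, where a difference of 1 is a 2-fold change, and folds of dim probe sets are understated.

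In each heartbeat a small entry of calcium opens the ryanodine receptor Ryr2, and calcium leaves the sarcoplasmic reticulum, the internal store of the muscle cell, to start contraction. The pump SERCA2a, a product of Atp2a2, returns most of it to the store, and the exchanger Slc8a1 carries the rest out of the cell against sodium. The small membrane proteins phospholamban (Pln) and sarcolipin (Sln) inhibit the pump, calsequestrin (Casq2) binds calcium inside the store, triadin (Trdn) ties calsequestrin to Ryr2, junctophilin 2 (Jph2) holds the store close to the cell surface membrane, and the histidine-rich protein Hrc binds calcium in the lumen. In the healthy heart sarcolipin is known mainly from the atria.

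Sln, Jph2 and Hrc fell with hCT1, and the other 6 genes did not pass the test. The fall was 2.22-fold for Sln, 1.36-fold for Jph2 and 1.34-fold for Hrc, at an adjusted p under 0.05 from limma. Thus 3 of 9 genes were lower and 0 were higher, against 9.84% of the 15310 probe sets tested that were lower and 4.98% that were higher. These shares include dim probe sets, whereas all 9 genes lay above the 40th percentile of control signal, as did 10695 of the 15310. With probe sets under the 40th percentile of mean signal left out, 1918 were lower and 868 higher, so the share among brighter probe sets is larger. Without adjustment, Ryr2 and Trdn also had a limma p under 0.05, which made 5 of 9 genes in either direction, beside 30% of all probe sets tested. The 9 genes had a median log2 difference of -0.08, beside -0.0028 over all probe sets tested. Every hCT1 sample lay below every control sample for 5 of the 9 genes and above for 1, and the same held for 20.5% and 13.9% of all probe sets tested. In bulk RNA, fewer cells of a type and less RNA per cell cannot be told apart.

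Across the array 1506 probe sets were lower and 762 higher with hCT1, so that 33.6% of the calls were higher. This share was 44.4% after another round of quantile normalization, under which the same 3 genes were lower. Leaving out 1 sample lowered the count of lower probe sets to 803 (control replicate 1 left out), 825 (control replicate 2), 891 (hCT1 replicate 1), 814 (hCT1 replicate 2) and 998 (hCT1 replicate 3), and it was 1810 with control replicate 3 left out. In the same order the higher probe sets numbered 463, 417, 428, 499, 508 and 873. Sln, Jph2 and Hrc each passed the test in all 6 fits that left out 1 sample. Pearson's r over all probe sets was 0.997 to 0.998 within groups and 0.994 to 0.996 between them.

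Windows from 250 bases before to 50 after the gene start were taken from RefSeq (build GRCr8), where 9 of the 10 genes were listed and Sln was not. The study followed Stat3 and Mef2 reporters in these cells, so the windows were searched on both strands for the palindromic STAT site TTCNNNGAA and for a MEF2-type site (CTA, any 4 bases, TAG). None of the 9 windows held either, beside 8.87% and 3.84% of the 33469 windows of the same length that held them. The MEF2 consensus, a search added after these had given no match and one that overlaps the second motif, was in 3.29% of all windows and in 1 of the 9, that of Casq2. The windows of Jph2 and Hrc are printed because both genes fell, and that of Casq2 because it carries the match, written in capitals and starting at position -149 from the gene start.
Jph2, chr3:172477872-172478171, minus strand: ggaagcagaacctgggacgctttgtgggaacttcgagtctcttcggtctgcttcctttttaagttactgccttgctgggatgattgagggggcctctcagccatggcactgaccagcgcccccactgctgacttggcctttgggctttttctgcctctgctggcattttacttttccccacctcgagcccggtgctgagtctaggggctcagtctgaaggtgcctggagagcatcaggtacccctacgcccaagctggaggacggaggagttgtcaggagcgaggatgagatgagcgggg
Hrc, chr1:104949500-104949799, plus strand: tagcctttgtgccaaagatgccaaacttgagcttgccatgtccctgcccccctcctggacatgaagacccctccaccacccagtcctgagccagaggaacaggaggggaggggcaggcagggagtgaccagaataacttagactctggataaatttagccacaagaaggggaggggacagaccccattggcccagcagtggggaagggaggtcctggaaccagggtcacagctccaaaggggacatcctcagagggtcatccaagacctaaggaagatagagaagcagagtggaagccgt
Casq2, chr2:192214306-192214605, plus strand: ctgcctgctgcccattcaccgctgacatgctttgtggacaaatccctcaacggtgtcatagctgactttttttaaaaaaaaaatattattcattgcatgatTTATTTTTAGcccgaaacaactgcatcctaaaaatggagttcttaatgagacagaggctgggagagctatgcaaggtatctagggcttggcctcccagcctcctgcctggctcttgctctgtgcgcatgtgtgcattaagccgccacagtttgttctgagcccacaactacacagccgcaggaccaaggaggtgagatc
A match is a description of letters and not a bound site, and a missing match says only that these letters are not in the window. The G and C share of the windows ran from 36.3% for Slc8a1 to 79% for Atp2a2, with 58% for Jph2 and 56.7% for Hrc.

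The pump gene itself did not pass the test. Atp2a2 (probe set 10758555) was at log2 values of 11.24, 11.24 and 11.31 in control samples and 11.28, 11.26 and 11.18 in hCT1 samples. The groups overlapped, with hCT1 replicate 3 the lowest and control replicate 3 the highest of the 6. Its log2 fold change was -0.02 (SE 0.06, adjusted p = 0.838 from limma), with a 95% interval of -0.15 to 0.11, or a fold of 0.902 to 1.08. The sign of so small a value depended on the setting, at 0.0056 after another round of quantile normalization, 0.0013 without control replicate 3 and 0.0086 without hCT1 replicate 3.

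Pln, the phospholamban gene (probe set 10830174), was at 12.11, 12.09 and 12.05 in control samples and 11.96, 12.07 and 12.01 in hCT1 samples. The groups overlapped through hCT1 replicate 2, which lay above control replicate 3. The log2 fold change was -0.07 (SE 0.06, adjusted p = 0.451 from limma), with a 95% interval of -0.19 to 0.06. Both Atp2a2 and Pln lay among the brightest probe sets, at percentiles 98.6 and 99.8 of control signal. A percentile describes probe signal and not the number of transcripts.

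Sln was the member that moved furthest. Its log2 values (probe set 10910047) were 8.66, 8.72 and 8.28 in control samples and 7.33, 7.29 and 7.59 in hCT1 samples. The groups lay apart, although the third sample of each group was the nearest to the other group. The mean went from 8.55 ± 0.24 to 7.40 ± 0.16 (SD, n = 3 each), which is a log2 difference of -1.15 ± 0.12 (SE, by limma, adjusted p = 0.000454) with a 95% interval of -1.42 to -0.87. Among the 15310 probe sets this fall ranked 9. When each sample was left out in turn, the log2 fold change of Sln lay between -1.29 and -1.07 and its adjusted p from limma between 0.00034 and 0.0026. The probe set went from percentile 83 of signal in control samples to percentile 70.6 in hCT1 samples, so it was not near the dim end of the scale in either group.

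**Figure D1:**
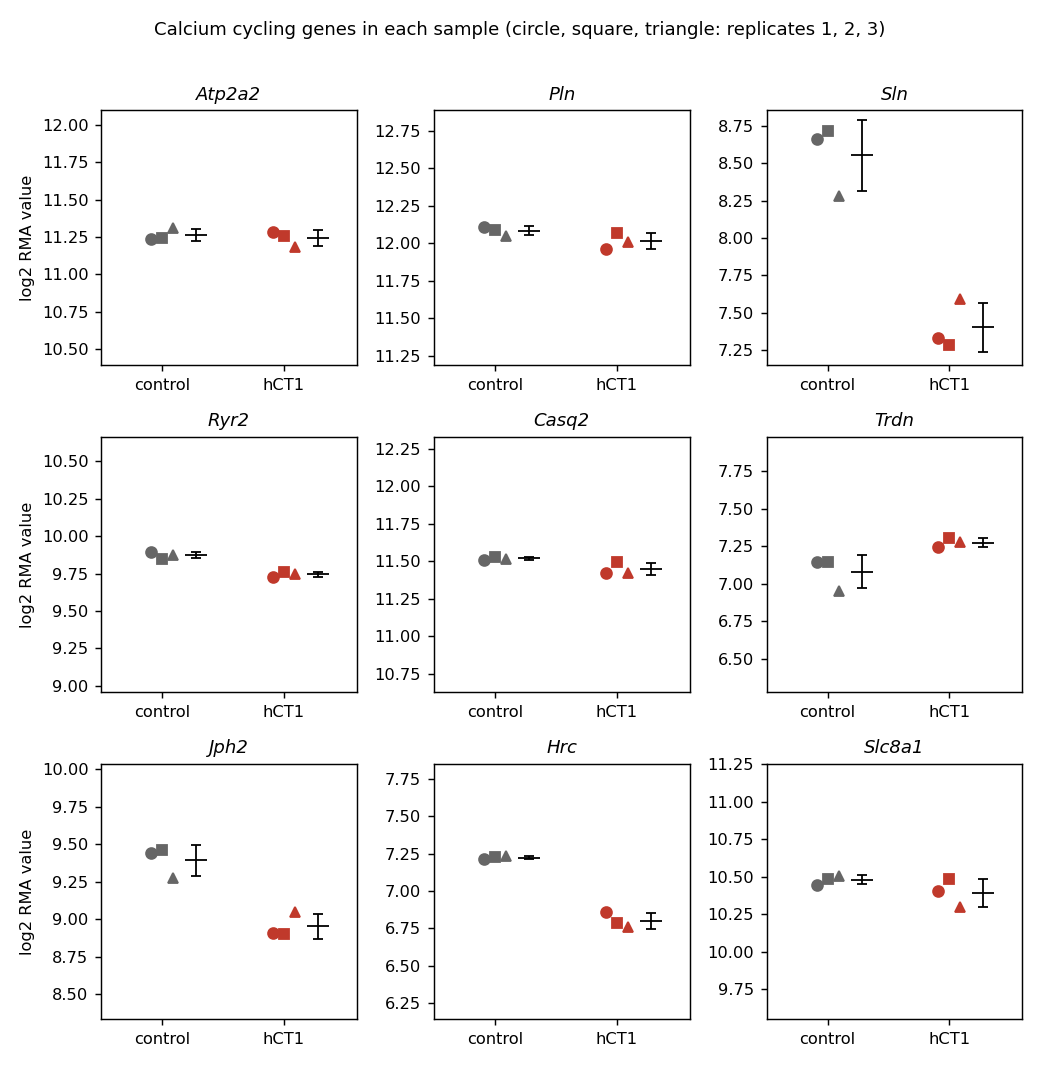
Log2 RMA value of 9 calcium cycling genes in 3 control samples (grey) and 3 hCT1 samples (red); circles, squares and triangles are replicates 1, 2 and 3, and the black marks give the mean and SD. Each panel spans the same range of log2 units around its own centre, and Sln, Jph2 and Hrc stand apart most clearly, with means lower by 1.15, 0.44 and 0.42.

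Since sarcolipin and phospholamban act on the same pump, the change in each was set against that of Atp2a2 within samples. The difference between Atp2a2 and Sln was wider by 1.13 on the log2 scale in hCT1 samples (SD 0.28 in control and 0.21 in hCT1 samples). All 3 hCT1 samples lay above all 3 control samples in this difference (exact permutation test, 2-sided, p = 0.1, the smallest that 3 samples against 3 can give, and 0.4 adjusted over the 4 pairs compared). For Atp2a2 against Pln the shift was 0.05 (SD 0.07 and 0.08), and the groups overlapped (exact permutation p = 0.5, adjusted 0.5). These tests compare changes and say nothing of the relative amounts of the proteins.

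The calcium release genes showed smaller differences than Sln. Ryr2, the release channel (probe set 10795796), was at 9.89, 9.85 and 9.87 in control samples and 9.73, 9.76 and 9.75 in hCT1 samples. Every hCT1 sample was lower and the spread within groups was narrow (SD 0.02 in each), yet the log2 fold change of -0.13 (SE 0.05) had an adjusted p of 0.134 from limma, which draws the variance of a probe set toward that of the others. By a one-way test, which uses the spread of Ryr2 alone, the p adjusted over all probe sets was 0.0338. The 95% interval of limma ran from -0.24 to -0.01.

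Casq2, the cardiac calsequestrin (probe set 10817881), was at 11.51, 11.53 and 11.52 in control samples and 11.42, 11.50 and 11.42 in hCT1 samples. The hCT1 samples were all lower, but hCT1 replicate 2 lay just under the lowest control sample. The log2 fold change was -0.07 (SE 0.05, adjusted p = 0.408 from limma), with a 95% interval of -0.19 to 0.05. The shift of Ryr2 relative to Casq2 was -0.06 (SD 0.03 in each group), with groups that overlapped (exact permutation p = 0.2, adjusted 0.4). The further pair planned, Casq2 with Casq1, had no Casq1 value.

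Trdn, whose protein anchors calsequestrin at the release channel, was the one member with a higher mean after hCT1. Its log2 values (probe set 10717359) were 7.14, 7.14 and 6.95 in control samples and 7.24, 7.30 and 7.28 in hCT1 samples. The groups did not overlap, and control replicate 3 was the lowest of the 6. The log2 fold change was 0.20 (SE 0.07, adjusted p = 0.0817 from limma), with a 95% interval of 0.05 to 0.35. It passed the test once dim probe sets were filtered out (adjusted p = 0.0496) and after another round of quantile normalization (log2 fold change 0.27, adjusted p = 0.0193), and in none of the 6 fits without 1 sample, where the adjusted p from limma ranged from 0.106 to 0.188.

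Jph2, which bridges the store and the cell surface membrane, fell. Its log2 values (probe set 10851486) were 9.44, 9.46 and 9.28 in control samples and 8.91, 8.91 and 9.05 in hCT1 samples. The groups lay apart, and as for Sln the third sample of each group was nearest to the other group. The mean went from 9.39 ± 0.10 to 8.95 ± 0.08 (SD, n = 3 each), which is a log2 difference of -0.44 ± 0.07 (SE, by limma, adjusted p = 0.00396) with a 95% interval of -0.60 to -0.28. By a one-way test, without the variance shared across probe sets, the adjusted p of Jph2 was 0.0555. Leaving out each sample in turn gave log2 fold changes of -0.50 to -0.41.

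Hrc, the calcium-binding protein of the store lumen, fell by a like amount with a narrower spread. Its log2 values (probe set 10706792) were 7.21, 7.23 and 7.23 in control samples and 6.86, 6.78 and 6.76 in hCT1 samples. The gap between the groups was wider than the range within either. The mean went from 7.22 ± 0.01 to 6.80 ± 0.05 (SD, n = 3 each), which is a log2 difference of -0.42 ± 0.05 (SE, by limma, adjusted p = 0.00134) with a 95% interval of -0.54 to -0.30. The log2 fold change stayed between -0.45 and -0.40 when each sample was left out. After another round of quantile normalization it was smaller in size, at -0.36 (adjusted p = 0.00323 from limma). Hrc was dimmer than most members, at percentile 67.9 of control signal.

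Slc8a1, the sodium-calcium exchanger that removes calcium from the cell (probe set 10888110), was at 10.45, 10.48 and 10.51 in control samples and 10.41, 10.48 and 10.30 in hCT1 samples. The groups overlapped at hCT1 replicate 2, and hCT1 replicate 3 was the lowest of the 6. The log2 fold change was -0.08 (SE 0.06, adjusted p = 0.407 from limma), with a 95% interval of -0.23 to 0.06, and it was -0.03 without hCT1 replicate 3. The shift of Atp2a2 relative to Slc8a1 was 0.06 (SD 0.02 in control and 0.06 in hCT1 samples; exact permutation p = 0.3, adjusted 0.4).

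**Figure D2:**
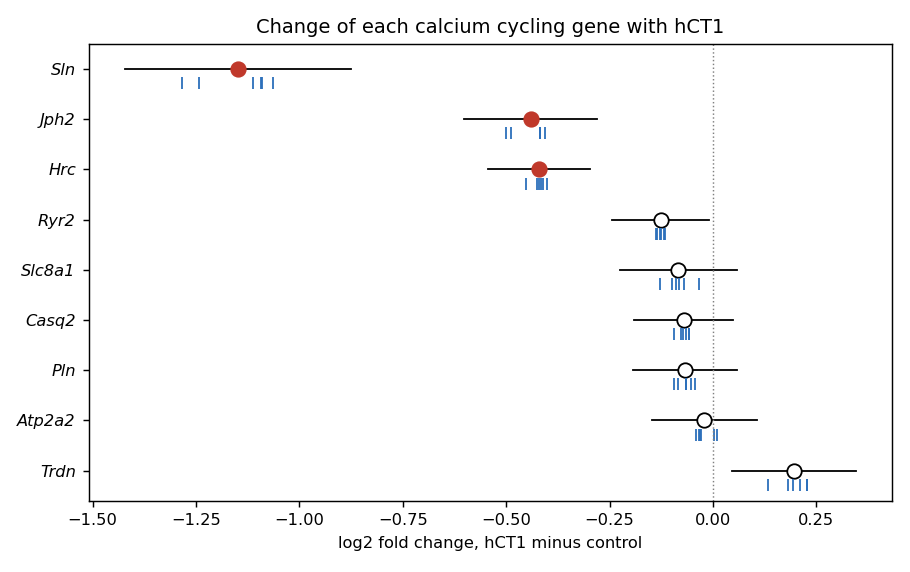
Log2 fold change (hCT1 minus control, 3 samples each) of 9 calcium cycling genes with 95% limma intervals as black lines; red fill marks an adjusted p under 0.05, white fill the rest, and blue ticks are the values without each of the 6 samples. Sln, at -1.15, lies beyond the intervals of all other genes, and the ticks of Atp2a2 fall on both sides of 0.

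Further genes of calcium handling were examined in 7 lists. Of 16 measured further regulators of the pump and of phospholamban phosphorylation, 4 were lower, 1 was higher and the remaining 11 missed the threshold (median log2 difference -0.07). Over all probe sets tested, 9.84% were lower and 4.98% higher. The lower count depended on the setting, at 1 by the one-way test with adjustment and 7 without it. By the one-way test without adjustment the higher count was 6. It was 5 by limma with a variance trend and a robust fit, and 4 after filtering at the 40th percentile of mean signal. The lower count was 4 in both of these limma settings. Pde3a, a phosphodiesterase that degrades cyclic AMP, went from 7.93, 7.90 and 7.85 in control samples to 7.43, 7.43 and 7.49 in hCT1 samples (a log2 difference of -0.44 ± 0.05, SE, with an adjusted p of 0.000995 by limma). Ppp1r3a, a muscle subunit that targets protein phosphatase 1 to glycogen, fell by 0.46 on the log2 scale (adjusted p = 0.026 from limma). S100a1, a calcium-binding protein known to bind the pump and the release channel, fell by 0.38 (adjusted p = 0.0089 from limma). Ppp1r1a, an inhibitor of protein phosphatase 1 (log2 fold change -0.38), and the small heat shock protein gene Hspb1 (0.27) complete the calls and are named after their values were seen. The calls of Pde3a, S100a1 and Hspb1 held without any 1 sample. Those of Ppp1r3a and Ppp1r1a were lost without control replicate 2 or hCT1 replicate 1, that of Ppp1r3a also without control replicate 3 or hCT1 replicate 3, and that of Ppp1r1a also without control replicate 1 or hCT1 replicate 2.

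Partners of the release channel were called in the main test about as often as all probe sets, of which 14.8% were called in either direction. Of 15 measured partners and junctional or T-tubule proteins, 1 was lower (the calmodulin gene Calm3, log2 fold change -0.21), 1 was higher (Dysf, which encodes the membrane repair protein dysferlin, 0.20) and the remaining 13 missed the threshold (median -0.10). Calm3 kept its call without control replicate 3 only, and Dysf without control replicate 1 only, of the 6 fits without 1 sample. The counts depended on the setting, with 4 lower and 1 higher by limma with a variance trend and a robust fit. They were 3 lower and 2 higher after filtering at the 40th percentile of mean signal. With replicate number as a block, 0 were lower and 0 higher. Among 11 paralogs of the calcium cycling genes and inositol trisphosphate receptors, 1 was lower, the release channel gene Ryr3, with values of 5.57, 5.64 and 5.34 in control samples and 5.10, 5.21 and 5.13 in hCT1 samples (a log2 difference of -0.37, with an adjusted p of 0.0174 by limma). The call of Ryr3 was lost without control replicate 1, control replicate 2, hCT1 replicate 1 or hCT1 replicate 3. The other 10 paralogs, among them the skeletal muscle forms Atp2a1 (0.02) and Ryr1 (0.12), missed the threshold, and the median of the list was -0.05.

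Genes that handle calcium outside the store formed 3 short lists with 1 call each, a share near the 14.8% of all probe sets called in either direction. Of 7 measured genes of plasma membrane calcium pumps and sodium transport, 1 was higher, Atp1b1, a subunit of the sodium pump whose gradient drives the exchanger (a log2 difference of 0.28, with an adjusted p of 0.0126 by limma), and its call was lost without hCT1 replicate 2. Of 8 genes of mitochondrial calcium uptake and release, 1 was higher, Micu2, a gatekeeper of the mitochondrial calcium uniporter (0.33, adjusted p = 0.0335 from limma). Of 8 genes of store-operated calcium entry, 1 was higher, the channel gene Orai2 (0.24, adjusted p = 0.047 from limma). Micu2 kept its call in 2 of the 6 fits without 1 sample (without control replicate 3 or hCT1 replicate 3), and Orai2 in 1 (without control replicate 1). The medians of these 3 lists were 0.07, 0.08 and -0.03.

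Of 12 measured genes of calcineurin and NFAT signalling, a calcium-dependent pathway of the cardiomyocyte, 1 was higher, 2 were lower and the remaining 9 missed the threshold (median -0.02). The shares over all probe sets tested were 4.98% higher and 9.84% lower. Rcan1, a calcineurin regulator known as a target of NFAT, was at 9.80, 9.92 and 9.97 in control samples and 10.35, 10.34 and 10.13 in hCT1 samples (a log2 difference of 0.38 ± 0.08, SE, with an adjusted p of 0.0115 by limma). Its call held without any 1 sample. Its paralog Rcan2 (-0.24) and the calcineurin-binding Z-disc gene Myoz2 (-0.25) were lower. Both calls were lost without control replicate 2 or hCT1 replicate 1, and that of Rcan2 also without control replicate 1 or hCT1 replicate 3.

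**Figure D3:**
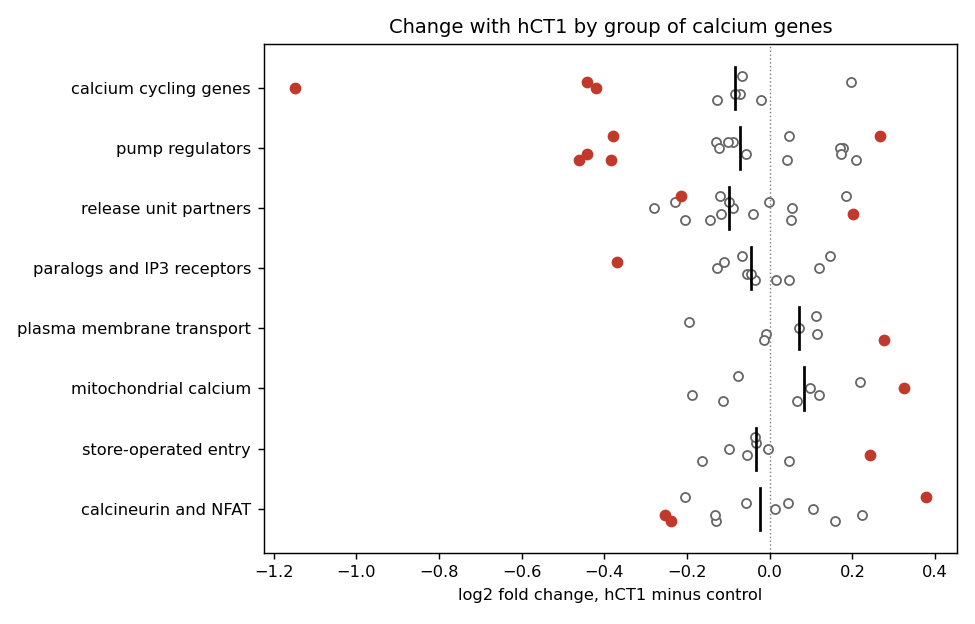
Log2 fold change (hCT1 minus control) of each measured gene, 1 point a gene, in the calcium cycling genes and 7 further lists; red fill marks an adjusted p under 0.05 by limma, white fill the rest, and black lines are list medians. Sln at -1.15 is the point farthest from 0, and the medians lie between -0.10 and 0.08.

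Markers of the cells in the culture were measured beside these genes. Of 10 cardiomyocyte markers, all of which lay above the 40th percentile of control signal, 5 were lower, beside 9.84% of all probe sets, and 0 higher (median -0.19, Tnni3 -0.62 and Myh6 -0.45), and their summed linear signal was 16950 to 17240 in control and 15140 to 15830 in hCT1 samples. The count of 5 was 3 without control replicate 2, hCT1 replicate 1, hCT1 replicate 2 or hCT1 replicate 3, 4 without control replicate 1 and 5 without control replicate 3. Of the 5 genes, Myom1 lost its call in all 6 of these fits and Ttn in 4. The 9.84% also covers dim probe sets, unlike this list. Of 9 atrial markers without Sln, 2 were lower (Myl7, log2 fold change -1.11, and Bmp10, -0.37) and 2 were higher (Dkk3, 0.29, and Gja5, 0.27), with summed signals of 9542 to 9789 and 9012 to 9340. Of these 9, 7 lay above the 40th percentile of control signal, and Bmp10, at percentile 30.7, did not. Myl7, the atrial myosin light chain, thus fell by an amount like that of Sln, while Nppa, the atrial natriuretic peptide gene, did not pass (-0.06, adjusted p = 0.531 by limma). The atria had been cut away before culture. Of 5 ventricular markers 1 was lower (Myl2, -0.48) and 2 had a positive log2 difference (median -0.06). Their sums were 10750 to 10820 and 9900 to 10390. Of 6 markers of the conduction system 2 were lower (Cacna1g, -0.48, and Hcn4, -0.35) and 2 had a positive difference (median -0.07). Their sums were 1005 to 1168 and 828.5 to 932.2, and 4 of the 6 lay above the 40th percentile of control signal. Beside the atrial, ventricular and conduction counts, 9.84% of all probe sets were lower and 4.98% higher. The call of Dkk3 was lost without control replicate 1, control replicate 2, hCT1 replicate 1 or hCT1 replicate 2, as was that of Hcn4. The part of these markers in the fall of Sln, Jph2 and Hrc was not tested.

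The culture also carried signal of other cell types. Beside the counts that follow, 9.84% of all probe sets tested were lower and 4.98% higher. All 10 fibroblast markers lay above the 40th percentile of control signal and 0 of them passed the test (median -0.06). The log2 difference was negative for 7 of them and positive for 3. The largest in size was 0.18 for Dcn, which encodes the matrix proteoglycan decorin (adjusted p = 0.106 by limma). The sums of this list were 10160 to 10680 in control and 9649 to 9920 in hCT1 samples. Of 6 endothelial markers 1 was lower (Emcn, -0.47) and 3 had a positive log2 difference (median 0.05). Their sums were 940.3 to 1072 and 962.2 to 988.4. Of 6 smooth muscle markers 2 were lower (Myh11, -0.39, and Tagln, -0.30) and 3 had a positive log2 difference (median -0.0004). Their sums were 9933 to 10180 and 9448 to 9642. Of 7 leukocyte markers 1 was lower (Lyz2, -0.52) and 2 had a positive log2 difference (median -0.17). Their sums were 384.9 to 399.4 and 290.4 to 343.4, and 3 of the 7 lay above the 40th percentile of control signal. Of 8 skeletal muscle markers without Casq1 none lay above that percentile and 1 was higher, Myf6 (0.36), with sums of 142.7 to 152.7 and 154.6 to 165. The call of Emcn was lost without control replicate 2, control replicate 3, hCT1 replicate 1 or hCT1 replicate 2. The part of these cells in the results was not tested.

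The sample profile of Sln was compared with those of the other genes, each centred on its own mean, by Euclidean distance over the 6 samples. The nearest 5 were Crygd, which encodes a crystallin (distance 0.145), the transcriptional coactivator gene Cited1 (0.335), Mmp15, a membrane-bound matrix metalloproteinase (0.368), Rimbp2, a scaffold protein known from synapses (0.392), and Asb2, a subunit of a muscle ubiquitin ligase (0.393). The log2 fold changes of these genes were -1.16, -0.97, -0.94, -0.92 and -0.98 in the same order. Likeness to Sln across the 6 samples chose these genes, so their values are a description. Crygd was at 5.73, 5.90 and 5.41 in control samples and 4.45, 4.49 and 4.62 in hCT1 samples.

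**Figure D4:**
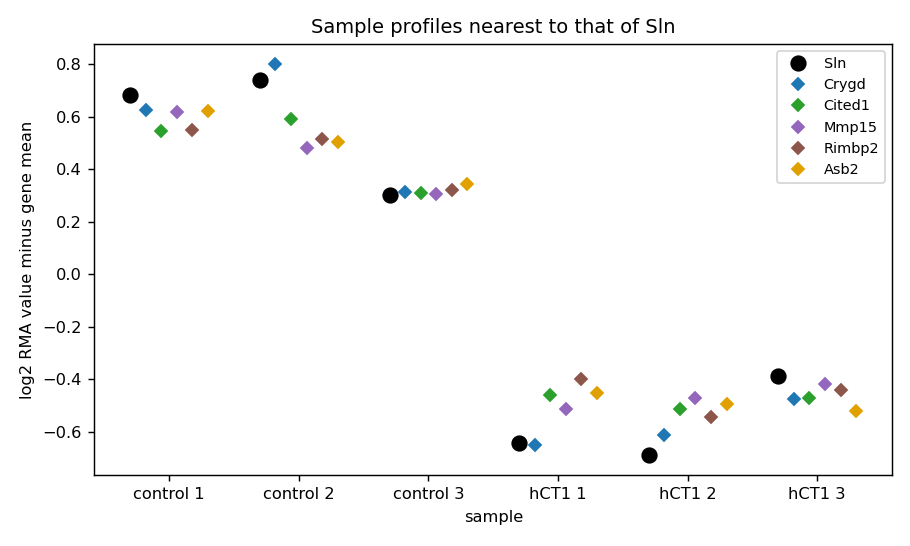
Log2 RMA value minus the mean of the gene over 6 samples, for Sln (black circles) and the 5 genes with the nearest sample profile (coloured diamonds), by sample. Control samples lie above 0 and hCT1 samples below it for all 6 genes, which were chosen for this likeness.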

How the data were processed

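Total RNA of 6 samples was measured by the authors on Affymetrix whole-transcript arrays. They deposited log2 values made with RMA (background correction, quantile normalization, then 1 summary value a probe set) with Affymetrix Expression Console; versions and a genome build are not given in the sources used here. The values were used as deposited. Of 29215 probe sets, the platform annotation paired 15310 with exactly 1 gene symbol, and these were tested. Symbols were updated through the Entrez identifier and the RefSeq gene table, which matched 15279.

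The 3 hCT1 samples were set against the 3 controls by limma 3.58.1 (R 4.3.3; functions lmFit and eBayes, 2-sided). P-values of all 15310 probe sets were adjusted together by Benjamini-Hochberg, and an adjusted p under 0.05 was called. Intervals are 95% limma intervals, unadjusted. A one-way test of each probe set on its own 6 values was an alternative; the study names such a test for comparisons of several groups and the sources used here name none for the arrays. The change was compared between pairs of genes with an exact permutation test over samples. Of a gene in the further lists, the brightest probe set was used. The genes and lists were chosen with earlier results of these data known. All probe sets of the calcium cycling genes are named, and in each further list the 3 largest changes that passed (the largest value where none passed), or 2 in marker lists. Marker lists covered cardiomyocytes, atrium, ventricle, conduction system, skeletal muscle, fibroblasts, endothelium, smooth muscle and leukocytes. The array number limits the precision, and the table gives no detection calls. The replicate numbers are not stated to pair samples, so they were not taken to do so. Same-numbered samples also did not deviate together (correlations of -0.00113, 0.0941 and -0.19 over all probe sets).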

Additional observations from a re-analysis of the deposited data

How the results depend on the processing

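Sln and Hrc kept their direction and their call under all 16 alternatives run, and Jph2 under 15, the exception being the one-way test with adjustment. Of the 9 calcium cycling genes, 3 were lower under every alternative but the one-way test without adjustment, which gave 5. With adjustment the one-way test also gave 3, but these were Sln, Hrc and Ryr2 (adjusted p = 0.0338), and Jph2 was not among them (adjusted p = 0.0555). The count of higher genes was 1 (Trdn) after filtering at the 40th percentile of mean signal, after another round of quantile normalization, by the one-way test without adjustment and at an adjusted p under 0.1, and 0 otherwise. Without each sample in turn, these counts were 3 in all fits for lower and 0 in all for higher. Averaging probe sets by gene could not change these counts, since each gene has 1. The log2 fold change of Atp2a2 turned to 0.0056 after quantile normalization, and ranged from -0.042 to 0.0086 without 1 sample. Over all probe sets the lower count was 2467 by the one-way test without adjustment and 675 with it, and 803 to 1810 without 1 sample. The higher count was 1483 and 376 by these tests, 1265 at an adjusted p under 0.1, 490 with the replicate block, and 417 to 873 without 1 sample. The replicate block, whose numbers only name samples, gave 1010 lower probe sets and left the same 3 genes lower. The differences between pairs kept their sign in all settings run. The pair Casq2 with Casq1 was not run. With 3 samples a group, the differences of Ryr2, Casq2, Pln and Slc8a1, at most 0.13 in size on the log2 scale, missed the adjusted threshold in limma.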
